A study of Mus musculus with 42 samples.

Results

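Cytochrome P450 genes of families 1 to 3 were followed in liver, white fat (WAT) and brown fat (BAT) of mice given water or an amino acid mixture. The members were all probe sets named for 1 gene whose symbol is Cyp, a family number from 1 to 3, a subfamily letter and a number. They were 52 of the 45037 probe sets tested, for 43 of the 18193 genes named alone on the array, and fell into 14 subfamilies. Genes with several probe sets numbered 7, and Cyp1b1 and Cyp2b10 had 3 each. RefSeq lists 57 protein-coding genes with symbols of this form. A probe set shared by Cyp3a41a and Cyp3a41b and another shared by Cyp2a4 and Cyp2a5 were left out. For 4 members the probe set is of a type that can bind transcripts of related genes: 2 of Cyp2b10, that of Cyp2c23 and that of Cyp2c65.

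Male ddY mice, 5 weeks old when received and acclimated for 1 week, were given deionized water or VAAM, a mixture that mimics the amino acids of Vespa larval saliva, with 7 mice in each group. Both groups were dosed by feeding tube 5 times, once daily, at 37.5 µL per g of body weight, the VAAM solution being 1.8%, and tissues were taken 4 h after the last dose. All mice had been without food since the morning of that day. Each tissue of each mouse was put on 1 Affymetrix array, 42 in all, and the arrays of a further group given the casein-like mixture CAAM were not analysed here. The depot from which WAT was taken is not named in the labels.

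P450 enzymes of these families are heme proteins of the endoplasmic reticulum that oxidize drugs, pollutants, steroids and fatty acids with electrons from P450 reductase. Most are made in hepatocytes, and many are induced through the receptors AhR, CAR and PXR. Some act outside drug clearance: Cyp2r1 carries out 25-hydroxylation of vitamin D, and several Cyp2c and Cyp2j enzymes turn polyunsaturated fatty acids into epoxides.

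Values are the deposited log values, whose base is not stated and which were taken as log2 from their range. The summary method used by the authors shrinks the variation among arrays unequally from one probe set and tissue to another. Differences between VAAM and water are therefore given in units of the within-group SD of the same probe set and tissue, and are no fold changes. A p from the exact permutation test is two-sided and covers the 3432 splits of 14 mice into 7 and 7.

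Marker genes fitted the tissue labels. The mean of 6 hepatocyte genes was at least 13.78 on liver arrays and at most 6.73 on fat arrays, and the brown fat gene Ucp1 averaged 14.22 in BAT and 6.36 in WAT of water mice. In liver, 4 of the 6 hepatocyte genes were higher with VAAM and 2 lower. Of the 6, 3 had an exact permutation p below 0.05, where 8.9% of all probe sets did. The group medians of their mean were 13.7847 in water and 13.7862 in VAAM mice, and their bearing on the members was not tested. Markers of neighbouring tissue varied between fat arrays, as the mean of 8 epididymis genes ran from 6.995 to 12.6 over WAT arrays and that of 5 skeletal muscle genes from 6.83 to 11.9 over BAT arrays. On the first 3 principal components, liver VAAM mouse 6, WAT VAAM mouse 1 and BAT VAAM mice 3 and 5 stood farthest apart. Without them (and without WAT water mouse 1), 2, 4 and 5 members had an exact permutation p below 0.05 in liver, WAT and BAT, beside 8.52%, 4.22% and 4.78% of all probe sets.

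The promoters of 5 members are shown because the tissue pattern and the spread between mice described further on turn on these genes. They are the 250 bases before the transcription start in RefSeq (GRCm38.p6), 5′ to 3′ on the strand of the gene: Cyp2e1 at chr7:140763569-140763818 (plus strand), Cyp3a11 at chr5:145879855-145880104 (minus strand), Cyp2c70 at chr19:40187287-40187536 (minus strand), Cyp2b10 at chr7:25897408-25897657 (plus strand) and Cyp1b1 at chr17:79715062-79715311 (minus strand). Capitals mark matches to any of 7 short motifs searched on both strands.
Cyp2e1: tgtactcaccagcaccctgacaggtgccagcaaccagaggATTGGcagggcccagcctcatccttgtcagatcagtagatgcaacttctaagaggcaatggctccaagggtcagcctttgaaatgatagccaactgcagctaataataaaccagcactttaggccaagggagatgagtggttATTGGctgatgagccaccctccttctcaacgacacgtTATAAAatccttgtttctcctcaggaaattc
Cyp3a11: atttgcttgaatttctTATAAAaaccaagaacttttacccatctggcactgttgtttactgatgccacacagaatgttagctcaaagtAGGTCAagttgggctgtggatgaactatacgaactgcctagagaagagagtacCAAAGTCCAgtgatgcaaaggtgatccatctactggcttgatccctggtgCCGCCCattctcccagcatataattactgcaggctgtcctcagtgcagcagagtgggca
Cyp2c70: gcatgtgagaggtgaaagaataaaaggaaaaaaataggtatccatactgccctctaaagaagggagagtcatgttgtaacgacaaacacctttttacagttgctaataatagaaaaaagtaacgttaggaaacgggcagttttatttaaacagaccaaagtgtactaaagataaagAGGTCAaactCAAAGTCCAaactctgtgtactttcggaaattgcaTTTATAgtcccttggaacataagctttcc
Cyp2b10: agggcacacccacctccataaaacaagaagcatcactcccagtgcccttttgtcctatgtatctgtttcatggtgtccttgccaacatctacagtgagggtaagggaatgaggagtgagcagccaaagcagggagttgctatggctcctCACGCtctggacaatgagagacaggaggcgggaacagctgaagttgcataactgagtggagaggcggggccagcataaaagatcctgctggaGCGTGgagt
Cyp1b1: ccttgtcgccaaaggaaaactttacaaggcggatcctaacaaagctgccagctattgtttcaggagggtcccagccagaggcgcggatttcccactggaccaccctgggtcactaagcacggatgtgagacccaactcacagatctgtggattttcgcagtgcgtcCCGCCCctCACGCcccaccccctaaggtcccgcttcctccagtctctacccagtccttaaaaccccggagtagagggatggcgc

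The spaced pair CAAAGNNCA, of the kind bound by the liver factor HNF4, stands in Cyp3a11 and, at 64 to 56 bases before the start, in Cyp2c70. Cyp2e1 has TATAAA at 31 to 26 bases before its start, and Cyp2b10 and Cyp1b1 have GCGTG, the core of the element bound by AhR, read on either strand.

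Such a window was at hand for 35 of the 43 genes, and 20 of the 35 were over 1 log unit higher in liver than in WAT. CAAAGNNCA was found in 14 of the 35, namely in 12 of these 20 and 2 of the other 15, and in 5.49% of 32851 promoters of the same length. TATAAA was found in 17 of the 35 (12.4% of all promoters), of which 12 were among the 20. AGGTCA, the core that nuclear receptors bind, was in 11 (14% of all). GCGTG was in 6 (28.2% of all), with 1 among the 20. For CCAAT the count was 12 (33.8%), for the GC box GGGCGG 5 (32.7%) and for GTTAAT, a part of the HNF1 site, 2 (6.43%). Genes of a cluster arose by duplication and share promoter sequence. Where the open bases of CAAAGNNCA are G and T it also holds AGGTCA, so both can be counted at 1 place, and a match describes the letters only.

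Most members were liver genes. In water mice 28 of 52 probe sets were over 1 log unit higher in liver than in WAT and 2 were lower (limma, adjusted p below 0.05), where 3.64% of all probe sets were higher and 9.62% lower. Against BAT, 28 were higher in liver and 1 lower (4.55% and 4.98% of all). The p added little, as 44941 of 45037 probe sets passed it between liver and WAT. Over all probe sets, the median of the liver minus WAT differences was -0.115 log units. After quantile normalization of all arrays the calls over all probe sets between liver and WAT went from 1640 higher and 4332 lower to 2188 and 2782, while the members stayed at 28 and 2. In bulk tissue, fewer cells of a type and less RNA per cell cannot be told apart.

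Cyp3a11, a main oxidase of steroids and drugs, averaged 14.42 in liver, 6.02 in WAT and 6.01 in BAT. Liver minus WAT was 8.40 for it, 7.83 for Cyp3a25, 7.55 for the epoxygenase Cyp2c29, 7.41 for Cyp2d10, 7.26 for Cyp2f2, the periportal enzyme that activates naphthalene, and 6.80 for Cyp2d26. The WAT values of these 6 genes lay below the median of all probe sets in WAT (6.91). Whether they were above background was not tested, so the sizes may depend on where each probe set's lowest signal lies, and no order of genes is read from them. Cyp1a2, which oxidizes caffeine, averaged 11.92 in liver and 6.17 in WAT. Its neighbour on chromosome 9, Cyp1a1, differed far less (6.51 and 6.11).

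Subfamilies were not uniform. In the Cyp2c cluster on chromosome 19, Cyp2c70 stood at 13.47 in liver and 6.78 in WAT, whereas Cyp2c65 stood at 6.04 and 5.92. In the Cyp2d cluster on chromosome 15, Cyp2d9 went from 6.57 in WAT to 13.31 in liver, and Cyp2d12 from 6.24 to 6.502. The vitamin D enzyme Cyp2r1 was 1.24 log units higher in liver than in WAT and 1.67 higher than in BAT. A level depends on the probes, so levels are compared between tissues and not between genes.

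Cyp2e1, which oxidizes ethanol and acetone, and Cyp1b1, a steroid hydroxylase found mostly outside the liver, were the exceptions in fat. Cyp2e1 averaged 14.44 in liver, 13.78 in WAT and 9.66 in BAT, a BAT minus WAT difference of -4.13. Both members lower in liver than in WAT were Cyp1b1 probe sets, with liver minus WAT differences of -2.89 and -1.60. The third Cyp1b1 probe set was at -0.26. Between the fats, 0 members were over 1 unit higher in BAT and 3 were lower, Cyp2e1 and the same pair of Cyp1b1 probe sets (1.78% and 5.25% of all probe sets, and 1212 and 1403 in place of 801 and 2365 after quantile normalization). The epoxygenase Cyp2j6 differed by under 1 unit, with 8.14, 8.18 and 8.42 in liver, WAT and BAT by its brightest probe set. By the other it stood at 7.82, 7.40 and 7.29, so the order of the tissues differed between its probe sets.

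Cyp2d22, a mouse counterpart of the human drug oxidase of the CYP2D group, averaged 11.55 in liver, 7.47 in WAT and 7.96 in BAT by one probe set and 10.69, 8.40 and 7.85 by the other. Cyp2s1, known from epithelia outside the liver, averaged 6.71 in liver, 7.21 in WAT and 6.64 in BAT. Between the fats, the largest differences under 1 unit were 0.76 for Cyp2u1 and -0.65 for Cyp2c54 (BAT minus WAT).

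**Figure D1:**
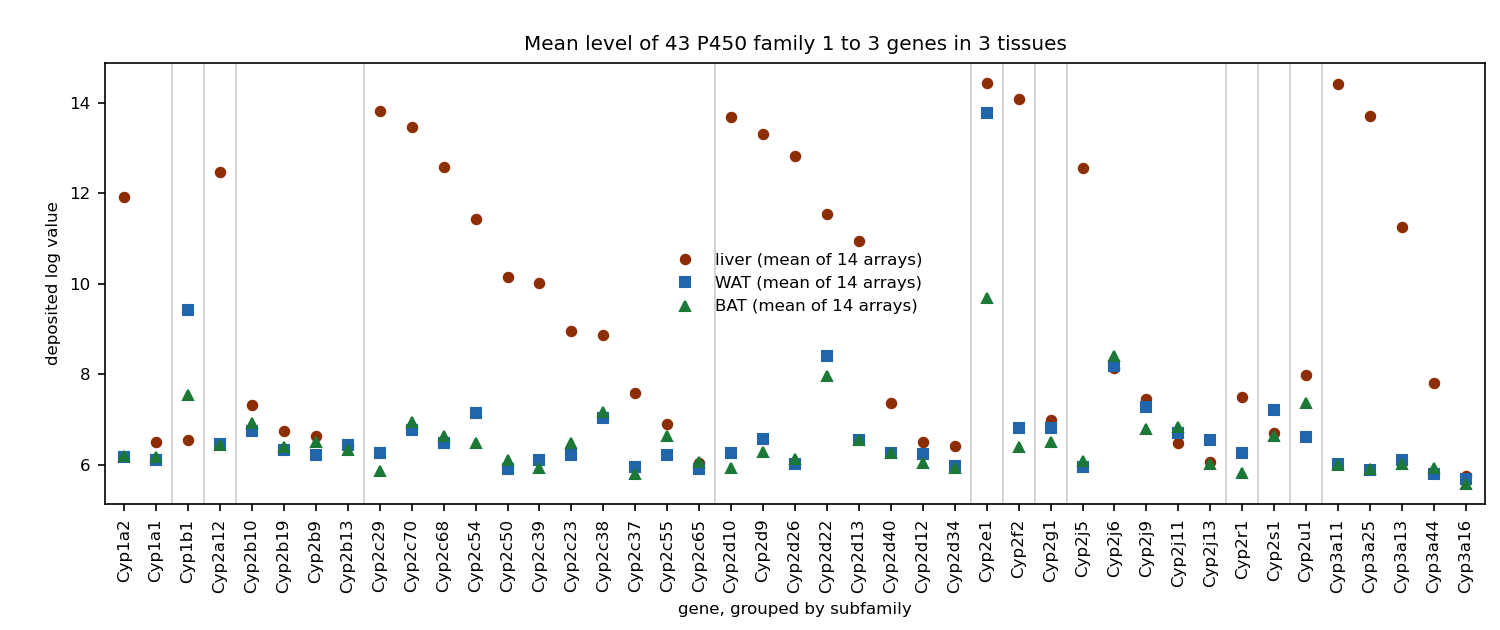
Mean deposited log value (vertical axis) of the 43 genes (horizontal axis, by subfamily), each point a mean of 14 arrays of liver, WAT or BAT, with the brightest probe set standing for a gene. Most Cyp2c, Cyp2d and Cyp3a genes lie far higher in liver than in either fat, and Cyp2e1 lies high in liver and WAT.

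Whether VAAM changed these genes was asked in each tissue. By limma, 0 of 52 members had an adjusted p below 0.05 in liver, WAT or BAT, and 0% of all probe sets did. The unadjusted limma p was below 0.05 for 2, 1 and 4 members, and for 4096, 1692 and 2296 of all probe sets. The exact permutation p was below 0.05 for 2 members in liver, 2 in WAT and 3 in BAT, beside 8.9%, 4.08% and 5.57% of all probe sets, so the members' counts were near or below this background. No member had groups without overlap, but the share over all probe sets was not counted, so nothing is read from this. The difference was above 0 for 19 members in liver, 30 in WAT and 27 in BAT, and for 46.7%, 49.4% and 48.6% of all probe sets.

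**Figure D2:**
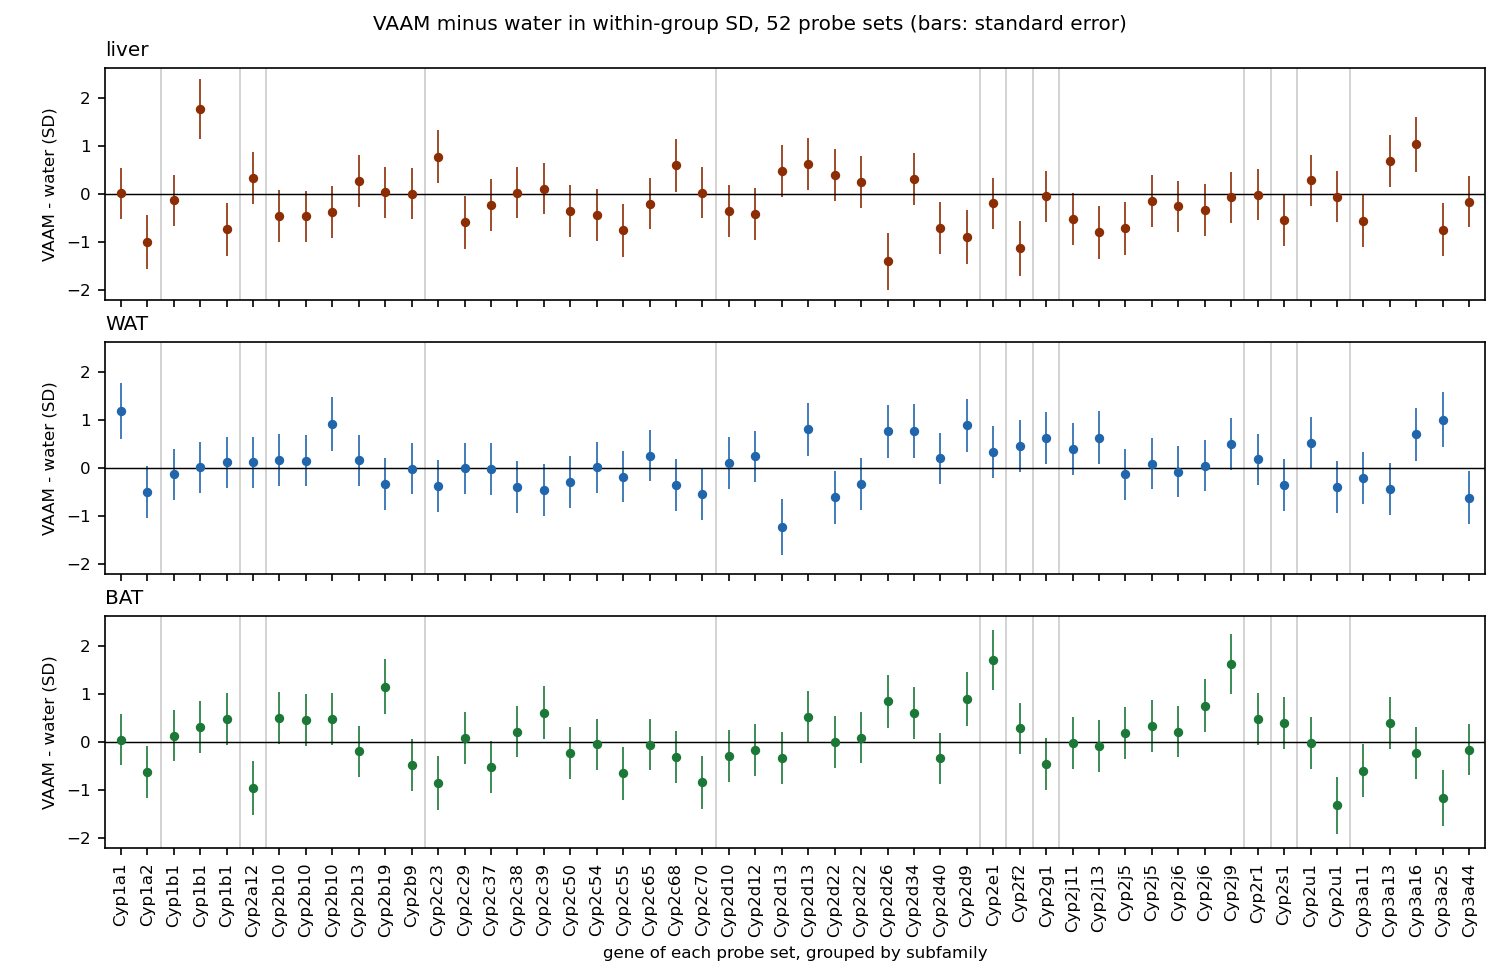
VAAM minus water in within-group SD (vertical axis, points with standard error bars, 7 mice a group) for the 52 probe sets (horizontal axis, by gene and subfamily), one panel a tissue. No point lies above 1.78 or below -1.39 SD. With all mice the 7 Cyp2j probe sets, of 5 genes, lie below 0 in liver, which did not hold without VAAM mouse 6.

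Liver Cyp2d26, of the Cyp2d cluster, ran from 12.81526 to 12.81553 (median 12.81533) in water mice and from 12.81521 to 12.81534 (median 12.81525) in VAAM mice. VAAM mice were mostly lower, with overlap. The difference was -1.39 SD (SE 0.596, exact permutation p = 0.0134, limma adjusted p = 0.479), and from -1.735 to -1.233 SD when 1 mouse was left out. Cyp1b1 by 1 of its probe sets differed by 1.78 SD (SE 0.631, exact permutation p = 0.00583). Its values ran from 5.857385 to 5.857391 (median 5.857389) in water mice and from 5.857389 to 5.857398 (median 5.857392) in VAAM mice, a spread in the last printed decimals. Its direction turned after quantile normalization (-0.93 SD) and in the mean of the 3 probe sets (-0.49 SD). The other Cyp1b1 probe sets were at -0.12 and -0.73 SD. In liver of water mice the first probe set lay at 5.86 and the others at 6.54 and 6.23. These levels are below the median of all liver probe sets (6.73), and whether they were above background was not tested.

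Cyp1a2 in liver ran from 11.9229 to 11.9255 (median 11.9244) in water mice and from 11.9222 to 11.9242 (median 11.9235) in VAAM mice. The groups overlapped, and the difference was -0.996 SD (exact permutation p = 0.0845), and -1.43 SD without water mouse 4 (exact permutation p = 0.0291). For Cyp1a2 the range over removals of 1 mouse was -1.43 to -0.808 SD (exact permutation p from 0.0291 to 0.176). Cyp2f2 was at -1.12 SD (exact permutation p = 0.0542), and without VAAM mouse 2 at -2.04 SD (exact permutation p = 0.000583). Leaving out each mouse in turn gave from -2.04 to -0.947 SD for Cyp2f2 (exact permutation p from 0.000583 to 0.114). Cyp2e1 and Cyp3a11 were at -0.19 and -0.56 SD.

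The linoleic and arachidonic acid oxidases Cyp2c50 and Cyp2c54 stood at 10.16 and 11.43 in liver. Cyp2c50 ran from 10.1503 to 10.1725 (median 10.1648) in water mice and from 10.1532 to 10.1723 (median 10.1598) in VAAM mice. Cyp2c54 ran from 11.4253 to 11.4318 (median 11.4297) in water mice and from 11.4265 to 11.4308 (median 11.4275) in VAAM mice. The groups of both overlapped, with differences of -0.34 SD (exact permutation p = 0.533) and -0.43 SD (exact permutation p = 0.428). In the same cluster, Cyp2c68 was at 0.60 SD (exact permutation p = 0.281), Cyp2c29 at -0.59, Cyp2c55 at -0.74, Cyp2c70 at 0.03 and Cyp2c37 at -0.22 SD.

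In the Cyp3a subfamily, Cyp3a13 was at 0.70 SD in liver (exact permutation p = 0.213), Cyp3a25 at -0.74 and Cyp3a11 at -0.56. Cyp3a16, known as a fetal form, was at 1.05 SD (exact permutation p = 0.0781), and 1.64 SD without VAAM mouse 4 (exact permutation p = 0.0181), 1.42 SD without VAAM mouse 7 (exact permutation p = 0.0321) and 1.37 SD without water mouse 1 (exact permutation p = 0.0321). Leaving out each mouse in turn gave from 0.891 to 1.64 SD for Cyp3a16 (exact permutation p from 0.0181 to 0.14). It lay at 5.75 in liver of water mice, below the median of all liver probe sets (6.73), with a within-group SD of 1.19e-05. Cyp3a44, known as predominant in females, was at -0.15 SD. In the Cyp2d subfamily, 5 of 10 probe sets were higher in liver, from -1.39 SD for Cyp2d26 to 0.63 SD for 1 of Cyp2d13. Cyp2d9, a testosterone hydroxylase of male liver, was at -0.89 SD (exact permutation p = 0.137), and -1.62 SD without water mouse 6 (exact permutation p = 0.0169). With each mouse removed in turn Cyp2d9 ran from -1.62 to -0.699 SD (exact permutation p from 0.0169 to 0.252). The steroid hydroxylase Cyp2a12 was at 0.34 SD, and Cyp2g1, known from the olfactory mucosa, at -0.04 SD.

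By subfamily and role, 0 of 7 Cyp2j probe sets, of 5 genes, were higher with VAAM in liver (from -0.79 to -0.06 SD, median -0.32), where the median of all probe sets was -0.05 SD. Without VAAM mouse 6, which stood apart, a Cyp2j5 probe set (0.27 SD) and both of Cyp2j6 (0.30 and 0.13 SD) lay above 0. The remaining Cyp2j probe sets stayed below 0. Of 6 genes known from the cells around the central vein, 0 were higher and 0 had an exact permutation p below 0.05 (median -0.45 SD). They are Cyp2e1, Cyp1a2, Cyp2c29, Cyp2c37, Cyp2c50 and Cyp3a11. Of 9 measured targets of CAR and PXR, 1 was higher (median -0.43 SD), and of 9 listed epoxygenases measured 2 were (median -0.25 SD). The epoxygenase Cyp2c23 was not counted in that list. It was at 0.78 SD in liver and below 0 in WAT and BAT. Of 3 AhR targets (Cyp1a1, Cyp1a2 and Cyp1b1) 1 was higher, and of 4 measured genes known as predominant in female liver 3 were. With each gene taken by its brightest probe set, none of these lists had a gene with an exact permutation p below 0.05 in liver. These lists share genes. In BAT the same lists had 2 of 6, 3 of 9 and 6 of 9 higher, and in WAT 2, 4 and 3.

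In WAT, Cyp1a1, the classical AhR target, ran from 6.10783 to 6.10788 (median 6.10786) in water mice and from 6.10787 to 6.10808 (median 6.10789) in VAAM mice. VAAM mouse 1 was highest, and the groups overlapped. The difference was 1.19 SD (SE 0.58, exact permutation p = 0.00291, limma adjusted p = 0.9998), and from 1.042 to 1.419 SD when 1 mouse was left out. After quantile normalization its direction turned, to -0.56 SD. Cyp1a1 lay at 6.11 in WAT of water mice, below the median of all WAT probe sets (6.91). Cyp2d13 was at -1.22 SD by one probe set (exact permutation p = 0.0367) and at 0.81 SD by the other (exact permutation p = 0.153), so its probe sets disagreed in sign. The p of the first rose above 0.05 without water mouse 3, 4, 5 or 6 or VAAM mouse 2 or 5 (-1.168 to -1.046 SD, exact permutation p from 0.0577 to 0.0793), and the mean of both probe sets was at 0.54 SD. The other probe set was at 1.29 SD without VAAM mouse 3 (exact permutation p = 0.0355). Over removals of each mouse that probe set ran from 0.598 to 1.29 SD (exact permutation p from 0.0355 to 0.303). Both Cyp2d13 probe sets also lay below the median of all WAT probe sets in water mice, at 5.82 and 6.56. Whether Cyp1a1 and Cyp2d13 were above background was not tested.

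Of the other WAT members, Cyp3a25 was at 1.01 SD (exact permutation p = 0.0781), and 1.64 SD without VAAM mouse 4 (exact permutation p = 0.0035). Leaving out each mouse in turn gave from 0.838 to 1.64 SD for Cyp3a25 (exact permutation p from 0.0035 to 0.163). Cyp2b10 was at 0.92 SD by its brightest probe set (exact permutation p = 0.111), and 1.30 SD without water mouse 5 (exact permutation p = 0.0385). Over removals of each mouse this probe set ran from 0.714 to 1.30 SD (exact permutation p from 0.0385 to 0.229). Cyp2d26 was at 0.77 SD (exact permutation p = 0.158), and 1.22 SD without water mouse 2 (exact permutation p = 0.0454). Its range over removals of 1 mouse was 0.585 to 1.22 SD (exact permutation p from 0.0454 to 0.305). In WAT of water mice Cyp3a25, this Cyp2b10 probe set and Cyp2d26 lay at 5.89, 6.75 and 6.02, below the median of all WAT probe sets (6.91). On the lower side were Cyp2d22 (-0.61 and -0.33 SD), Cyp3a44 (-0.61 SD) and Cyp2c70 (-0.54 SD), none with an exact permutation p below 0.05. Cyp1b1 was at -0.13 SD by its brightest probe set. Of 11 Cyp2c probe sets 3 were higher with VAAM in WAT, and the same number in BAT.

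Cyp2e1 in WAT was 13.78443, 13.78454, 13.78454, 13.78452, 13.78458, 13.78459 and 13.78453 in water mice 1 to 7 and 13.78431, 13.78461, 13.78458, 13.78462, 13.78459, 13.78465 and 13.78461 in VAAM mice 1 to 7. Mouse 1 was the lowest of each group. With all mice the difference was 0.35 SD (SE 0.538, exact permutation p = 0.565). It ran from 0.151 to 1.72 SD when 1 mouse was left out (exact permutation p from 0.00524 to 0.914). Without VAAM mouse 1 it was 1.72 SD (exact permutation p = 0.00524), and without mouse 1 of both groups, a choice made after seeing the data, 2.15 SD (exact permutation p = 0.0108). These mice also had the highest mean of the 8 epididymis genes, 11.4 in water and 12.6 in VAAM mouse 1, while mouse 2 had 10.1 and 9.65 and the others 6.995 to 8.31. The group medians of this mean were 7.17 in water and 8.26 in VAAM mice, and of the 8 genes 3 were higher with VAAM. The median over the 8 was -0.02 SD. Of the 8, 2 had an exact permutation p below 0.05 (4.08% of all probe sets did), both higher: the epididymal lipocalin Lcn5 (2.16 SD, exact p = 0.00175) and the defensin Defb15 (0.85 SD, exact p = 0.0035). The part of epididymal RNA in the Cyp2e1 and Cyp1a1 values was not tested.

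In BAT, Cyp2e1 was 9.670, 9.607, 9.678, 9.628, 9.682, 9.723 and 9.621 in water mice 1 to 7 and 9.716, 9.704, 9.697, 9.725, 9.688, 9.726 and 9.766 in VAAM mice 1 to 7. All VAAM mice lay above 6 of the 7 water mice, and water mouse 6 overlapped with them. The difference was 1.71 SD (SE 0.624, exact permutation p = 0.00816, limma adjusted p = 0.926), and it ran from 1.55 to 2.396 SD when 1 mouse was left out (exact permutation p from 0.000583 to 0.0192). In a limma fit that shares 1 estimate of the spread over the 42 arrays it was the single member called in BAT (adjusted p = 0.00248), where 0.224% of all probe sets were called higher. That fit pools the within-group SD of Cyp2e1 in BAT (0.0343) with far smaller ones in WAT (8.96e-05) and liver (8.79e-07), so its p is too small and adds no support. Without VAAM mice 3 and 5 the difference was 1.95 SD (exact permutation p = 0.00884).

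Of 4 adipocyte and 4 brown fat genes measured in BAT, 2 and 1 had an exact permutation p below 0.05, where 5.57% of all probe sets did. They were Adipoq, the gene of adiponectin (1.96 SD, exact p = 0.00466), the lipase gene Lipe (-1.24 SD, exact p = 0.021) and the brown fat gene Cox7a1 (-1.38 SD, exact p = 0.0111). Ucp1 was at -0.15 SD. The mean of the 5 skeletal muscle genes ran from 6.96 to 11.9 in water mice (median 7.54) and from 6.83 to 11.6 in VAAM mice (median 8.8). Their part in the Cyp2e1 value was not tested.

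The epoxygenase Cyp2j9 in BAT ran from 6.78925 to 6.78929 (median 6.78928) in water mice and from 6.78927 to 6.78933 (median 6.78930) in VAAM mice. VAAM mice were mostly higher, with overlap, by 1.63 SD (SE 0.617, exact permutation p = 0.0111), and by 1.478 to 2.208 SD when 1 mouse was left out. After quantile normalization the difference was -0.0793 SD, on the other side of 0. Cyp2u1, a fatty acid hydroxylase, was at -1.31 SD by one probe set (exact permutation p = 0.0361) and at -0.02 SD by the other. The p of the first rose above 0.05 without water mouse 2, 3, 4 or 7 or VAAM mouse 1, 3, 4 or 7 (-1.271 to -1.151 SD, exact permutation p from 0.0501 to 0.0711).

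Several BAT values turned on single mice. Cyp2b19, an epoxygenase of skin keratinocytes, was at 1.16 SD (exact permutation p = 0.0519), and 1.77 SD without VAAM mouse 2 (exact permutation p = 0.00758), 1.31 SD without VAAM mouse 6 (exact permutation p = 0.0396), 1.24 SD without water mouse 4 (exact permutation p = 0.0495) and 1.26 SD without water mouse 7 (exact permutation p = 0.0437). Over removals of each mouse Cyp2b19 ran from 0.988 to 1.77 SD (exact permutation p from 0.00758 to 0.106). Cyp3a25 was at -1.16 SD (exact permutation p = 0.053), and -2.34 SD without VAAM mouse 6 (exact permutation p = 0.00117) and -1.27 SD without water mouse 6 (exact permutation p = 0.0472). Leaving out each mouse in turn gave from -2.34 to -0.99 SD for Cyp3a25 (exact permutation p from 0.00117 to 0.104). Cyp2a12 was at -0.95 SD (exact permutation p = 0.0985), and -1.33 SD without VAAM mouse 3 (exact permutation p = 0.0396). Its range over removals of 1 mouse was -1.33 to -0.767 SD (exact permutation p from 0.0396 to 0.193). Cyp2d26 was at 0.85 SD (exact permutation p = 0.139), and 1.29 SD without VAAM mouse 7 (exact permutation p = 0.0437). With each mouse removed in turn Cyp2d26 ran from 0.674 to 1.29 SD (exact permutation p from 0.0437 to 0.246). In BAT of water mice Cyp2b19, Cyp3a25, Cyp2a12 and Cyp2d26 lay at 6.40, 5.92, 6.44 and 6.14, below the median of all BAT probe sets (6.77). Their within-group SD ran from 2.03e-06 to 9.01e-06 log units, and whether they were above background was not tested. The AhR targets Cyp1a1, Cyp1a2 and Cyp1b1 were at 0.05, -0.62 and 0.14 SD, and the 5 of 7 Cyp2j probe sets that were higher included both of Cyp2j6 (0.22 and 0.76 SD). The second was at 1.45 SD without VAAM mouse 3 (exact permutation p = 0.0315). Over removals of each mouse it ran from 0.603 to 1.45 SD (exact permutation p from 0.0315 to 0.296).

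Differences between tissues in the VAAM effect were tested on values scaled to unit SD. Of 156 such differences of members, 0 passed limma at an adjusted p below 0.05 (0.141% of all did), and the unadjusted p was below 0.05 for 6 members between liver and WAT, 5 between liver and BAT and 2 between WAT and BAT, and for 4552, 3768 and 2335 of all 45037 probe sets. Cyp2d26 had the smallest adjusted p, with liver minus BAT -2.24 SD (adjusted p = 0.233) and liver minus WAT -2.16 SD (adjusted p = 0.217).

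Rank products, the method the study used, compare ranks of differences over the 49 pairs of mice. At a false discovery rate of 0.05 they called 14 members in liver, 2 in WAT and 4 in BAT, beside 3.81%, 3.3% and 4.05% of all probe sets. In liver 9 were called higher and 11 lower, because 6 were called both ways: 2 probe sets of Cyp2b10, and Cyp2b9, Cyp2c23, Cyp2c38 and Cyp2c39. Called higher alone were Cyp2c68 and both probe sets of Cyp2d13. Called lower alone were Cyp1a2, Cyp2c50, Cyp2c54, Cyp2d26 and the remaining Cyp2b10 probe set. The WAT calls, both higher, were Cyp2d9 and Cyp2f2 (0.89 and 0.48 SD, with Cyp2d9 at 1.32 SD without water mouse 1 (exact permutation p = 0.039)), and the BAT calls, all higher, were Cyp2e1 and 3 probe sets of Cyp2b10. For Cyp2d9 in WAT, removing 1 mouse at a time gave from 0.693 to 1.32 SD (exact permutation p from 0.039 to 0.229).

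Above the 90th percentile of within-group SD were 13 of the 14 members called in liver and all those called in WAT and BAT, and the lowest percentile of a called member was 88.6. Other members above the 90th percentile were not called, since 25 lay there in liver. With every probe set scaled to unit SD, rank products called 0 members in each tissue (0.691%, 0.129% and 0.244% of all probe sets).

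**Figure D3:**
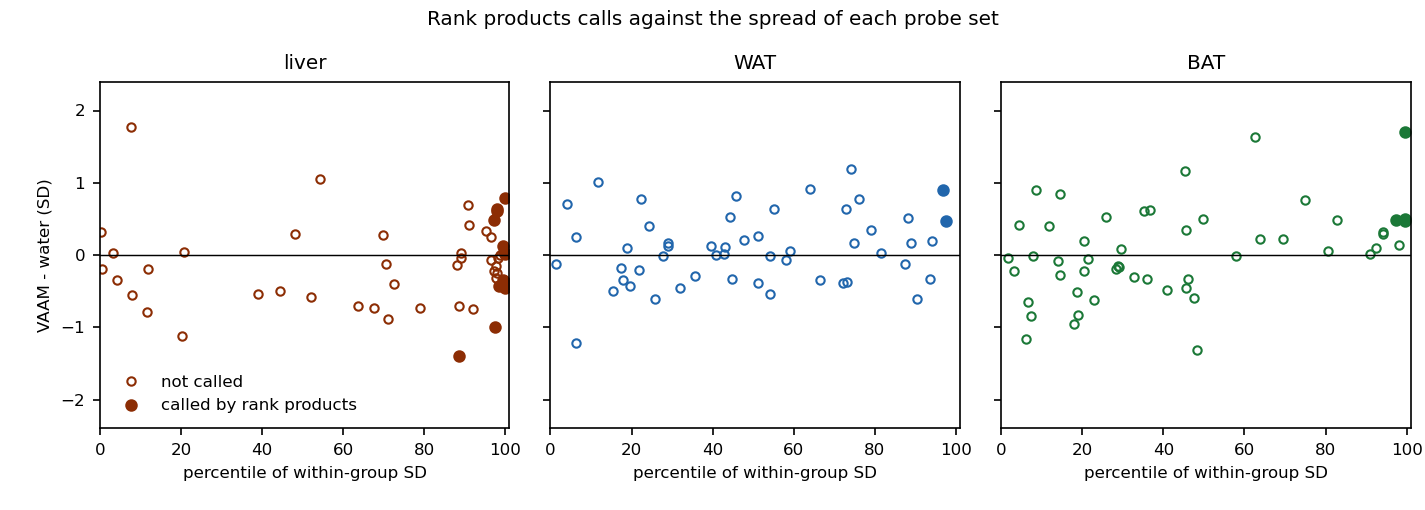
VAAM minus water in within-group SD (vertical axis) against the percentile of each member's within-group SD among all probe sets (horizontal axis), one panel a tissue, filled where rank products called the member. All filled points lie at a percentile of 88.6 or above.

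Spread between single mice was wide for many members in liver. There 25 of 52 were above the 90th percentile of within-group SD, against 5 in WAT and 9 in BAT. The range over 14 mice passed 0.1 log units for 4 members in liver (0.204% of all probe sets), 0 in WAT (0.881%) and 3 in BAT (0.473%).

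Cyp2c23, an arachidonic acid epoxygenase, had the widest liver spread of the members and ranked 11 of 45037 by SD. It was 8.792, 9.316, 8.827, 8.698, 8.775, 8.807 and 8.739 in water mice 1 to 7 and 9.287, 9.316, 8.725, 8.775, 8.689, 9.294 and 9.316 in VAAM mice 1 to 7. The values formed an upper and a lower level, with 1 of 7 water and 4 of 7 VAAM mice in the upper one. The difference was 0.78 SD (SE 0.555, exact permutation p = 0.246), and the split itself was not tested, as it was seen in these values. In WAT and BAT the gene stood at 6.22 and 6.48 in every mouse.

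Cyp2b10, induced through CAR, ran from 6.543 to 6.640 (median 6.568) in water mice and from 6.513 to 6.626 (median 6.570) in VAAM mice in liver by one probe set. The groups overlapped widely (-0.45 SD, exact permutation p = 0.42). In BAT the same probe set ran from 6.859 to 6.965 (median 6.873) in water mice and from 6.858 to 6.946 (median 6.916) in VAAM mice, again with overlap (0.50 SD, exact permutation p = 0.367). Over 14 mice, deviations from the group mean of its 3 probe sets correlated with r from 0.983 to 0.992 in liver and from 0.979 to 0.997 in BAT (all 6 with an adjusted permutation p = 4.125e-05 over 33 relations), and from 0.159 to 0.873 in WAT. Cyp2b9, a relative that female livers express more, ran from 6.601 to 6.738 (median 6.643) in water mice and from 6.602 to 6.738 (median 6.620) in VAAM mice and differed by 0.02 SD.

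**Figure D4:**
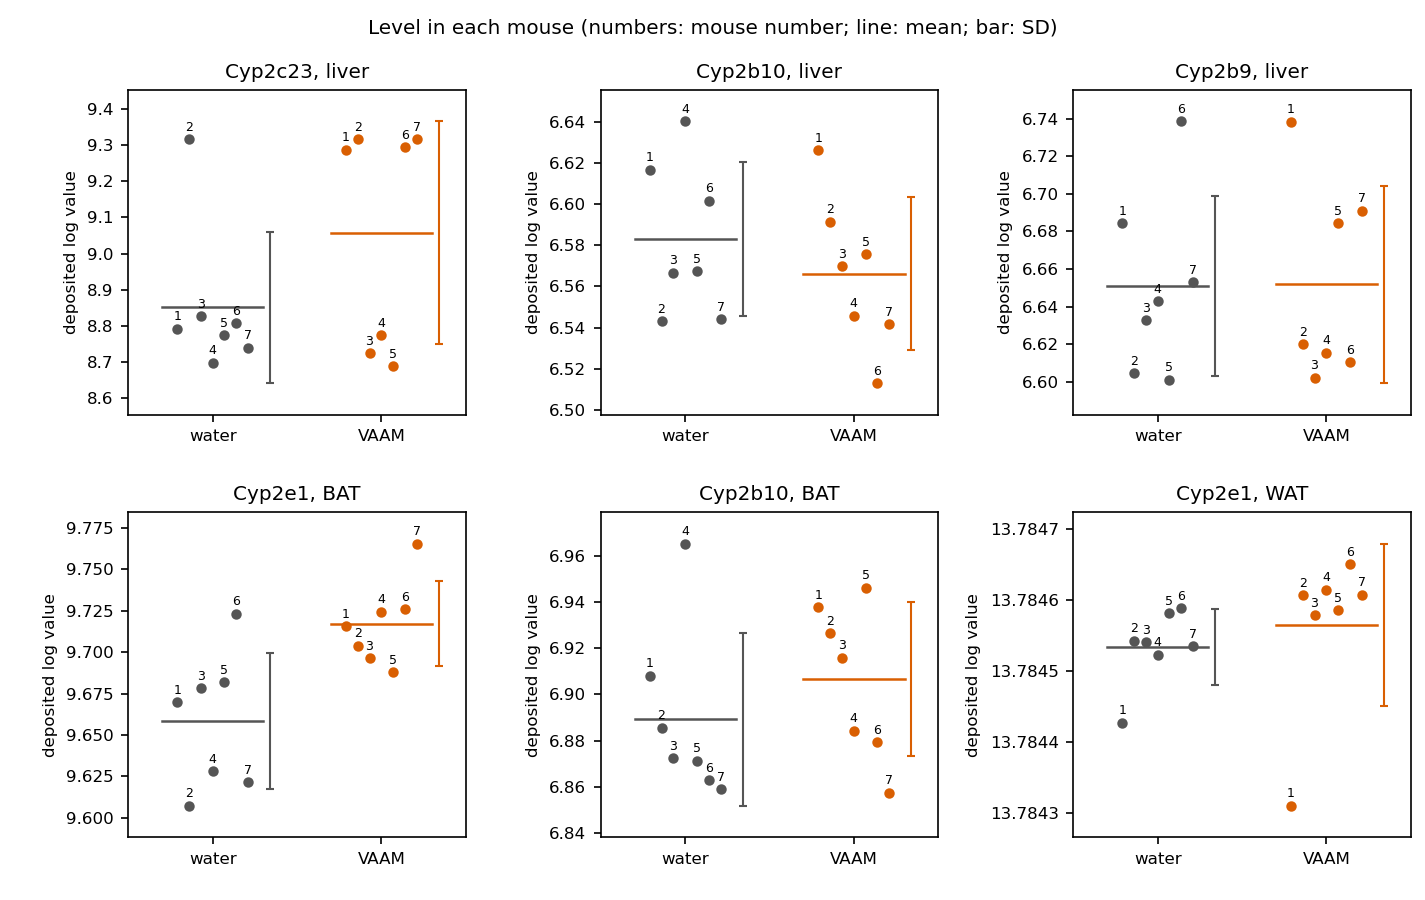
Deposited log value (vertical axis) in each water and VAAM mouse, with mouse numbers at the points, the group mean as a line and the SD as a bar, for Cyp2c23, Cyp2b10 and Cyp2b9 in liver and Cyp2e1 and Cyp2b10 in fat. Liver Cyp2c23 shows an upper and a lower level, BAT Cyp2e1 lies higher in VAAM mice than in all water mice but mouse 6, and WAT Cyp2e1 is lowest in mouse 1 of both groups.

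Mice of the same number were compared between tissues, a comparison chosen after seeing the data. The labels do not state that a number stands for the same animal in each tissue. Over 52 probe sets and 3 pairs of tissues (156 relations), deviations from the group mean were correlated over 14 mouse numbers. Over all probe sets, arrays of the same number had r from -0.0453 to 0.283. Among the 7 arrays of the other tissue, the same number had the highest r in 8 of 14 cases for liver and WAT. It did so in 10 of 14 for liver and BAT and 11 of 14 for WAT and BAT. Between water and VAAM arrays this held for 1 of 7 in liver, 2 of 7 in WAT and 2 of 7 in BAT. Cyp2r1 had r = 0.910 between liver and WAT (permutation p = 4e-05, adjusted p = 0.00624, Spearman's rho 0.881, permutation p = 9e-05). Between WAT and BAT r was 0.855 (permutation p = 0.00027, adjusted p = 0.0211, rho 0.868, permutation p = 0.00027). Between liver and BAT r was 0.757 (permutation p = 0.0028, adjusted p = 0.0728, rho 0.771, permutation p = 0.00251). Without the 2 mice farthest from the median these r were 0.902, 0.857 and 0.681. Within water and VAAM mice r between liver and WAT was 0.938 and 0.916.

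By the lowest of the 3 r, Cyp2r1 came first among the members and 223 among all 45037 probe sets (0.495% at or above it). In water mice Cyp2r1 lay at 6.26 in WAT and 5.83 in BAT, below the medians of all probe sets there (6.91 and 6.77). The within-group SD of Cyp2r1 in BAT was 8.04e-05 log units. Whether Cyp2r1 was above background in fat was not tested. Its liver values ran from 7.4948 to 7.4998 (median 7.4981) in water mice and from 7.4955 to 7.5000 (median 7.4984) in VAAM mice, and the effect of VAAM was 0.19 SD in WAT and 0.48 SD in BAT. Cyp2b10 had r from 0.745 to 0.776 between liver and BAT over its 3 probe sets (adjusted permutation p = 0.0646 for each).

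**Figure D5:**
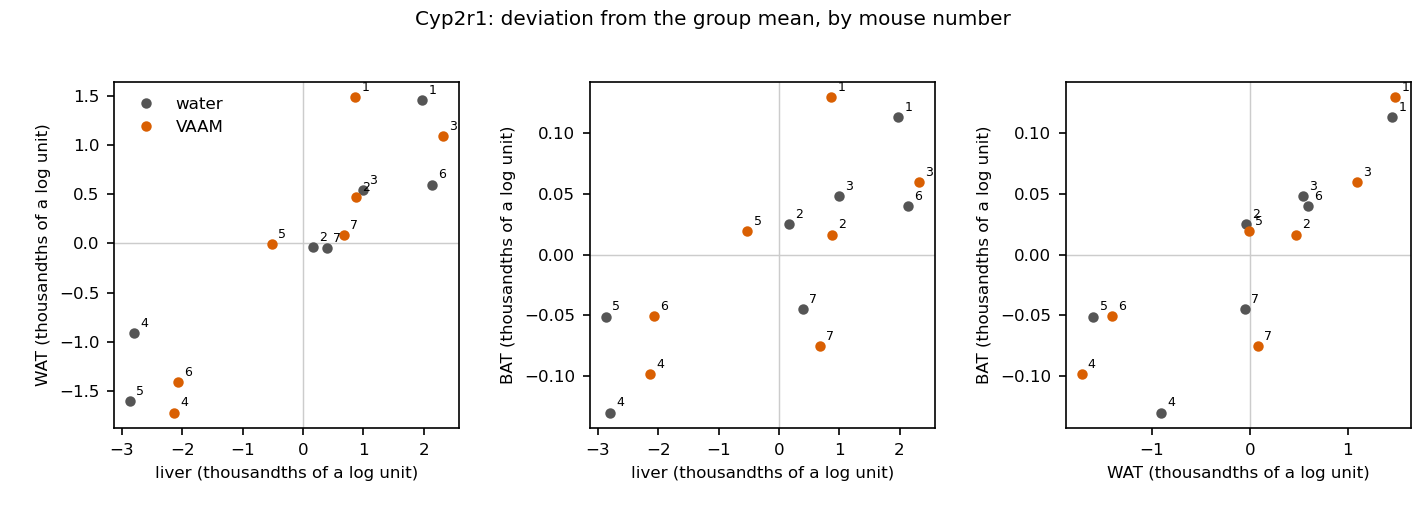
Deviation of Cyp2r1 from its group mean, in thousandths of a log unit, for mice of the same number in liver and WAT, liver and BAT, and WAT and BAT (horizontal and vertical axes), points coloured by treatment. The points rise together in each panel, with r of 0.910, 0.757 and 0.855.

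Genes that supply P450 enzymes with electrons and heme or control their transcription were described as a list, of which 21 of 22 were measured, Por not among them. In liver 12 were higher and 9 lower, and 4 of the 21 had an exact permutation p below 0.05, where 8.9% of all probe sets did. These were Rxra, the partner of nuclear receptors (1.92 SD, exact p = 0.0035), the reductase Cyb5r1 (1.44 SD, exact p = 0.0134), the heme-binding Pgrmc1 (-1.32 SD, exact p = 0.0321) and Nfe2l2, a regulator of oxidative defence (1.22 SD, exact p = 0.046). In WAT 5 were higher and 16 lower, with 0 below 0.05 (4.08% of all). In BAT 10 were higher and 11 lower, and 1 was below 0.05 (5.57% of all), Ahrr, the repressor of AhR (1.67 SD, exact p = 0.00641). The receptors CAR (Nr1i3) and PXR (Nr1i2) were at -0.86 and -0.40 SD in liver.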

How the data were processed

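RNA of liver, WAT and BAT from 7 water and 7 VAAM mice was hybridized to 42 arrays. The authors summarized them by the distribution free weighted method in R (version 2.7.2 in the submitters' processing notes) and deposited log2 values (the base is not stated and was taken from their range) of 45101 probe sets. Leaving out 64 controls, 45037 were tested, unfiltered. Gene names came from the platform annotation, and promoters from RefSeq. Members and lists were chosen with earlier results of these data known. Named were members with the smallest p, the highest levels or the widest tissue differences, members called by a test or in the study's tables, and well-known readouts. VAAM and water were compared in each tissue, and water mice between tissues, with limma 3.58.1 in R 4.3.3 (Benjamini-Hochberg, 0.05), rank products (50 permutations, 20 with an array left out) and exact permutation. Correlations used 100000 permutations. Other steps ran in Python 3.11.15 (numpy 2.4.6, pandas 2.3.3, matplotlib 3.10.9). Limma, exact permutation and rank products on unit SD were run on simulated liver arrays with planted changes larger than any seen in the members. Rank products on unscaled values, and smaller changes, were not checked that way. Alternatives were quantile normalization, a filter on low values, a trended robust prior, array weights, a replicate block, gene means, 1 fit over all tissues, another size limit, unit SD and leaving out arrays.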

Additional observations from a re-analysis of the deposited data

Results flagged for a closer look

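Among 160 groups of 7 mice of named members, 12 (7.5%) held a mouse far from the others, by the gap to its nearest neighbour as a share of the group's range, and chance gives about 1 in 20 groups. In liver it was water mouse 2 for Cyp2c23, the only water mouse in the upper level, with a share of 0.7917. In WAT, Cyp2e1 was lowest in water mouse 1 (0.5944) and VAAM mouse 1 (0.7883). In BAT, the high mice were water mouse 2 for Cyp2u1 (0.5911), VAAM mouse 6 for Cyp3a25 (0.5992), VAAM mouse 2 for Cyp1a2 (0.6418), VAAM mouse 3 for Cyp1b1 (0.6870), VAAM mouse 1 for Cyp2c50 (0.5684), water mouse 4 for Cyp1a1 (0.5761) and water mouse 6 for Cyp2f2 (0.7402). Cyp2d22 in BAT was low in water mouse 2 (0.7741) and VAAM mouse 3 (0.6422). Without VAAM mouse 6 the Cyp3a25 difference in BAT was -2.34 SD (exact permutation p = 0.00117), against -1.16 SD with all mice. The gene lay at 5.92 there, below the median of all BAT probe sets (6.77), with a within-group SD of 2.03e-06 log units.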

How the results depend on the processing

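Limma called 0 members in liver, WAT and BAT under each alternative run except 1 fit over all tissues, which called 1 in BAT by pooling the smaller spread of the other tissues. The counts between tissues (30, 29 and 3) stayed within 1.5 times except BAT against WAT at a difference over 2, which gave 1. Rank products called 14, 2 and 4 members, and 0, 0 and 0 on unit SD. After quantile normalization they called 9 in liver, 0 in WAT and 4 in BAT. Without both number 1 arrays of WAT, chosen after seeing the data, they called 1. Leaving out 1 array gave 12 to 16, 1 to 2 and 4 to 6. The share of all probe sets called after quantile normalization or without arrays is not given here, so these changes are not read as particular to the members. Their cause was not tested.

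Values with an exact permutation p below 0.05 changed sign under quantile normalization for Cyp1b1 in liver (-0.926 SD), Cyp1a1 in WAT (-0.556 SD) and Cyp2j9 in BAT (-0.0793 SD), and with gene means for Cyp1b1 in liver (-0.486 SD) and Cyp2d13 in WAT (0.538 SD). Over all named members, quantile normalization changed the sign of 3 of 17 values in liver, 10 of 26 in WAT and 13 of 27 in BAT, and gave none for 10 in liver, whose ranks were the same on all arrays.

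Replicate numbers did not pair water with VAAM mice (r from -0.2 to 0.544), and with the replicate block limma called 0 members in each tissue and the counts between tissues stayed at 30, 29 and 3. The number of arrays limits the precision.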
